A study of Mus musculus with 10 samples.

Results

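The genes described here are 10 genes that rise in the gut wall during colitis in mice: *S100a8*, *S100a9*, *Il1b*, *Tnf*, *Lcn2*, *Saa1*, *Saa3*, *Nos2*, *Duox2* and *Duoxa2*. They were chosen by name from the 47069 genes of a count table of mouse intestinal organoids, whatever their level. All 10 passed the filter on low counts, but *S100a8* and *S100a9* did so only through the DMBA+TAM libraries, so that in comparisons without this group 8 of the 10 had enough counts of their own. The mice that gave the organoids were C57BL/6 and carried *Lgr5-EGFP-CreERT2* with both alleles of *Ppp2r1a* floxed (*Ppp2r1a* flox/flox), a line in which the *Lgr5* promoter drives a Cre that tamoxifen turns on in crypt stem cells. All groups shared this genotype and a culture of 50 days in Matrigel with EGF, Noggin and R-spondin 1. There were 10 RNA-seq libraries in 5 groups of 2: saline (control), the carcinogen DMBA labelled long, tamoxifen (TAM) labelled short, TAM labelled long, and both agents, DMBA and TAM (DMBA+TAM). The sources used here do not explain short and long, nor do they state whether the 2 libraries of a group came from separate mice or cultures, so p-values measure only the spread between these libraries.

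The libraries are named NS (control), NL (DMBA), DSS_S (TAM short), DSS_L (TAM long) and Lgr5 (DMBA+TAM). The labels place the words dosage-sensitive before TAM in the DSS libraries, and DSS is also the usual short form of dextran sulfate sodium, a compound that causes colitis in mice. Which of these the name stands for is not stated. The comparisons that lead below therefore pair libraries by their names, DSS_S with NS and DSS_L with NL, which by the labels are TAM short with control and TAM long with DMBA.

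In gut inflammation, *Il1b* and *Tnf* encode cytokines that myeloid cells release, and these cytokines switch on NF-kB in epithelium and connective tissue. *S100a8* and *S100a9* encode the subunits of calprotectin, a protein of neutrophils and monocytes that is measured in stool as a sign of colitis, and *Lcn2* encodes lipocalin 2, which binds bacterial siderophores. *Saa1* and *Saa3* encode serum amyloid A proteins of the acute phase. *Nos2* encodes the inducible nitric oxide synthase, *Duox2* an epithelial oxidase that makes hydrogen peroxide, and *Duoxa2* the factor that *Duox2* needs to mature and reach the cell surface.

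Several of these genes are neighbours in the genome. *Duox2* (ENSMUSG00000068452, minus strand) runs on chromosome 2 of GRCm38 from 122279247 to 122298165, and *Duoxa2* (ENSMUSG00000027225, plus strand) from 122298900 to 122302885, so that they point away from each other with 734 bases between them. *Saa3* (ENSMUSG00000040026, 46711998 to 46715676) and *Saa1* (ENSMUSG00000074115, 46740501 to 46742980) lie on the minus strand of chromosome 7 with 24824 bases between them. *S100a8* (ENSMUSG00000056054, 90668978 to 90670035, plus strand) and *S100a9* (ENSMUSG00000056071, 90692632 to 90695721, minus strand) lie on chromosome 3. On chromosome 2 are also *Il1b* (ENSMUSG00000027398, 129364570 to 129371139) and *Lcn2* (ENSMUSG00000026822, 32384633 to 32388252), both on the minus strand. *Tnf* (ENSMUSG00000024401) is on the minus strand of chromosome 17 from 35199381 to 35202007, and *Nos2* (ENSMUSG00000020826) on the plus strand of chromosome 11 from 78920787 to 78960254.

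The promoters of both serum amyloid genes are shown because *Saa1* was lower and *Saa3* higher in DMBA+TAM than in 3 of the other groups, and those of *Duox2* and *Duoxa2* because these neighbours had the same order. The bases are those before the start site in RefSeq on GRCm38.p6, written 5′ to 3′ on the gene's strand, from chr7:46742981-46743230 (*Saa1*, minus), chr7:46715677-46715926 (*Saa3*, minus), chr2:122298228-122298377 (*Duox2*, minus) and chr2:122298750-122298899 (*Duoxa2*, plus). Capitals mark the C/EBP motif TTGCNNAA on either strand or the TATA motif TATAAA, as found by a search for these letters.
Saa1: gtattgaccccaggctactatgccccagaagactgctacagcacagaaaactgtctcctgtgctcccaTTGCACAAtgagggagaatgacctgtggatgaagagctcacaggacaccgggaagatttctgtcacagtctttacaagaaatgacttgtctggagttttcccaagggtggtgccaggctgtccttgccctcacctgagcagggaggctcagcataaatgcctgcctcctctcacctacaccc
Saa3: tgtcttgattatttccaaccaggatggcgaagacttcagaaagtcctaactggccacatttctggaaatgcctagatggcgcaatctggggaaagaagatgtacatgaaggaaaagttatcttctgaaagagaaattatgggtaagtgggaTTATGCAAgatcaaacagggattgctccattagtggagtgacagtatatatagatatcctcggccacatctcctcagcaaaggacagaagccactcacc
Duox2: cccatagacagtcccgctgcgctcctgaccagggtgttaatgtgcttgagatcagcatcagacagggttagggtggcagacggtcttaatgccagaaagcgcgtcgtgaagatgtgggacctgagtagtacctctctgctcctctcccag
Duoxa2: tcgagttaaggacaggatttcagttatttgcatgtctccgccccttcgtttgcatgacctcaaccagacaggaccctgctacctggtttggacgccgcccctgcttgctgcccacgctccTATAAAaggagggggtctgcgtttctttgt

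*Saa1* held the C/EBP motif 182 to 175 bases before its start on its own strand, and *Saa3* 99 to 92 bases before its start on the opposite strand. *Duoxa2* held TATAAA 30 to 25 bases before its start, and none of the 3 motifs searched stood in the 250 bases before *Duox2*. Of the 9 members with a promoter in the table (all but *Nos2*), 4 held the C/EBP motif in the 250 bases before the start (*S100a9*, *Lcn2*, *Saa1* and *Saa3*), against 9.56% of 32851 promoters. TATAAA stood in 4 of 9 (*S100a8*, *Il1b*, *Tnf* and *Duoxa2*), against 12.4% of promoters, and the 10-letter NF-kB motif (GGGA, any base, then TTTCC) in 0 of 9, against 0.356%. Both strands were searched for each motif. These are matches of letters, not measured sites.

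Counts on genes came to between 8828247 and 10923673 in 8 libraries and to 1592366 and 1915270 in DMBA+TAM. Levels are given as normalized CPM (CPM, counts relative to the library total, with totals scaled by edgeR's TMM method), and 3 counts stand for 0.258 to 0.378 in the first 8 libraries and for 1.58 and 1.32 in DMBA+TAM. *Ppp2r1a*, whose exons Cre deletes, had 123 and 129 in control against 129 and 133 in DMBA+TAM (log2 fold change 0.06, SE 0.11, adjusted p = 0.687, from the quasi-likelihood test of edgeR adjusted by Benjamini-Hochberg), so its level over all exons did not separate these 2 groups. Against control it rose by 0.34 in DMBA (adjusted p = 0.0291) and by 0.37 in TAM long (adjusted p = 0.0213), and it was lower in DMBA+TAM than in TAM long by a log2 fold change of -0.31 (adjusted p = 0.0403). *Ppp2r1a* did not pass in TAM short against control (0.14, adjusted p = 0.459 by edgeR) or in TAM long against DMBA (0.03, adjusted p = 0.924). The 12 epithelial markers fixed for the check summed to 16771 to 26461 normalized CPM in 8 libraries and to 24.6 and 40.6 in DMBA+TAM, where *Epcam* had 1.45 ± 0.185 (SD, n = 2) against 2514 ± 77.4 in control. The DMBA+TAM libraries therefore go against their label of intestinal organoid, and were high in 12 macrophage markers (4933 and 5366, against 176 to 290 elsewhere) and 10 fibroblast markers (32345 and 33351, against 708 to 2343). Markers of gut segment followed the S and L of the names: 10 genes of the small intestine summed to 18744 to 31324 in control and TAM short, to 308 to 1023 in DMBA and TAM long, and to 12.1 and 13.2 in DMBA+TAM. Control and TAM short were not alike within this list. *Fabp6*, the ileal bile acid binding protein, had 1.53 ± 1.82 (SD, n = 2) in control and 8388 ± 789 in TAM short, whereas *Lct*, which encodes lactase, had 1414 and 1.96 on average and the transcription factor gene *Onecut2* 22.1 and 1.86. In these bulk libraries, fewer cells of a type and less RNA per cell cannot be told apart.

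**Figure D1:**
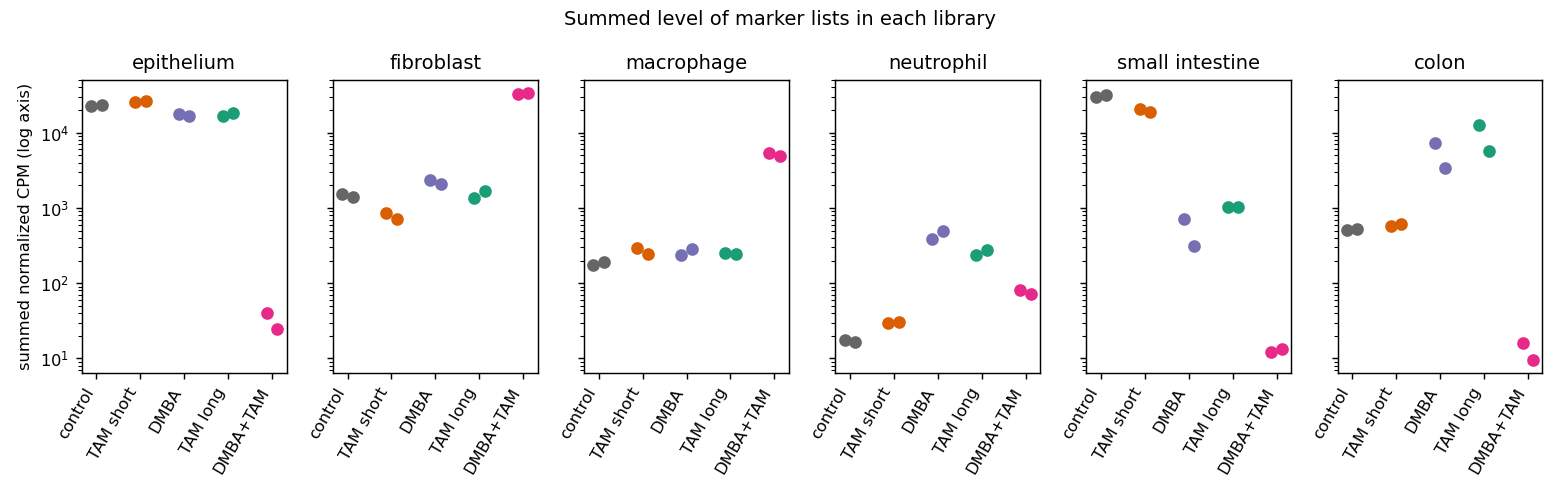
Summed normalized CPM of 6 lists of marker genes (log axis) in each library, one point per library and one panel per list. DMBA+TAM stands below all other groups in epithelium and above them in fibroblast and macrophage markers, and control and TAM short stand apart from DMBA and TAM long in small intestine and colon markers.

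The members fell into orders that can be told by library. *Saa1* had 1.13 and 1.08 normalized CPM in control, 150 and 266 in TAM short, 260 and 557 in DMBA, 899 and 1033 in TAM long, and 6.85 and 9.67 in DMBA+TAM. TAM long was highest, and the ranges of DMBA and TAM short overlapped. *Saa3* had 0.790 and 1.20 in control, 1.47 and 1.76 in TAM short, 7.04 and 1.91 in DMBA, 10.7 and 2.94 in TAM long, and 327 and 210 in DMBA+TAM. Here DMBA+TAM stood above all other libraries and the ranges of DMBA and TAM long overlapped. *Saa2*, the closest relative of *Saa1* among the 3, had at most 12 counts in any library. Its level was highest in DMBA+TAM, as for *Saa3*, at 5.01 ± 0.378 normalized CPM (SD, n = 2) on 9 and 12 counts. The next group was TAM long, at 0.399 ± 0.287 on 7 and 2 counts. The *Saa1* and *Saa2* transcripts are identical at 93.9% of their aligned bases, with a longest identical run of 99 bases, so that reads of this pair may be split between them by the counting. *Saa1* and *Saa3* are identical at 62.2%.

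*Nos2* had 34.9 and 26.1 normalized CPM in control, 429 and 513 in TAM short, 4.55 and 13.0 in DMBA, 24.4 and 17.8 in TAM long, and 14.7 and 7.47 in DMBA+TAM. TAM short stood alone at the top, and the low ranges of DMBA and DMBA+TAM overlapped. *Duox2* had 92.2 and 51.8 in control, 384 and 487 in TAM short, 131 and 244 in DMBA, 277 and 333 in TAM long, and 2.11 and 2.64 in DMBA+TAM. *Duoxa2* had 8.12 and 3.97 in control, 85.9 and 98.1 in TAM short, 12.7 and 28.2 in DMBA, 34.2 and 41.9 in TAM long, and 0 counts in both DMBA+TAM libraries, which allows a level of up to 1.58 and 1.32. Both genes of the oxidase pair were ordered TAM short, TAM long, DMBA, control and DMBA+TAM, with no overlap between neighbours in that order. *Duoxa1* overlaps *Duoxa2* on the other strand, and whether the counting used strand is not stated. It had 30 and 43 counts in DMBA+TAM, where *Duoxa2* had none.

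Of the cytokines, *Tnf* had 0 and 0.240 normalized CPM in control, 2.71 and 4.28 in TAM short, 0.624 and 1.12 in DMBA, 5.42 and 3.63 in TAM long, and 7.37 and 4.40 in DMBA+TAM. Its ranges in both TAM groups and DMBA+TAM overlapped from neighbour to neighbour, above those of DMBA and control. *Il1b* had 0.790 and 0 in control, 3.95 and 2.39 in TAM short, 1.60 and 0.336 in DMBA, 1.72 and 2.75 in TAM long, and 43.2 and 22.4 in DMBA+TAM. DMBA+TAM stood above all other libraries, both TAM groups overlapped each other, and below them DMBA and control overlapped. The calprotectin genes and *Lcn2* were also highest in DMBA+TAM. *S100a8* had 15.8 and 11.4 in DMBA+TAM and between 0 and 0.775 in the other 8 libraries, on at most 9 counts. *S100a9* had 37.4 and 21.5 in DMBA+TAM and between 0.112 and 0.564 elsewhere, on at most 5 counts. *Lcn2* had 53.2 and 36.5 in DMBA+TAM and between 1.20 and 3.03 elsewhere.

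**Figure D2:**
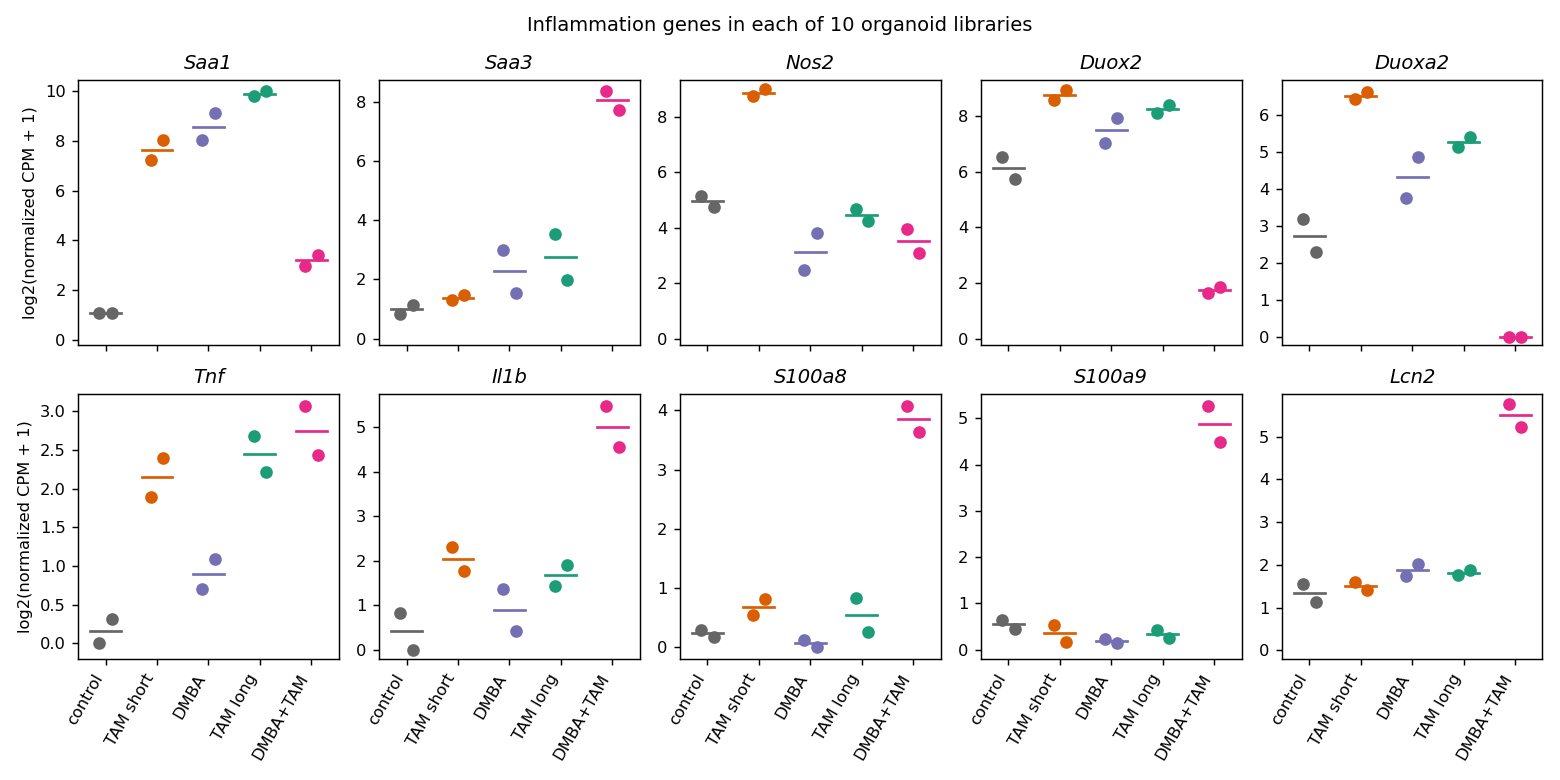
Level of each of the 10 genes, as log2(normalized CPM + 1), in each of 10 libraries, with points for libraries and lines for the means of groups of 2. *Saa3*, *Il1b*, *S100a8*, *S100a9* and *Lcn2* are highest in DMBA+TAM, *Nos2*, *Duox2* and *Duoxa2* in TAM short, and *Saa1* in TAM long.

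The first question was whether the DSS_S libraries (TAM short) differed from the NS libraries (control) in these genes. They did in 5 of 10: *Saa1*, *Tnf*, *Nos2*, *Duox2* and *Duoxa2* were higher in TAM short, against 6.52% of all 16179 tested genes called higher. None of the 10 was lower by edgeR, against 7.80% of all genes, and the number was also 0 at an unadjusted p under 0.05 (15.9% of all genes), by DESeq2 and by limma. Their median log2 fold change was 2.76, or 3.42 over the 8 without the calprotectin genes, beside -0.04 over all tested genes.

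*Saa1* rose most, with a log2 fold change of 7.54 (SE 0.51) and an adjusted p of 2.80e-05 by edgeR, from 10 and 9 counts to 1330 and 2116. *Nos2* rose by 3.95 (SE 0.40, adjusted p = 0.000244 by edgeR). *Duoxa2* rose by 3.92 (SE 0.41, adjusted p = 0.000528 by edgeR) and its partner *Duox2* by 2.59 (SE 0.33, adjusted p = 0.000835 by edgeR), so that the maturation factor changed 15.1-fold where the oxidase changed 6.04-fold. *Tnf* went from 0 and 2 counts to 24 and 34, a ratio of 29.6 with a 95% counting interval of 7.84 to 251 (adjusted p = 0.00397 by edgeR). All 5 calls held when each of the 4 libraries was left out, with *Tnf* at 3.77 and *Duoxa2* at 4.53 without control replicate 1. Without control replicate 2, *Tnf* had no control count left and has no fitted fold to give.

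The other 5 genes did not pass. *Il1b* had a log2 fold change of 2.93 (SE 0.91, adjusted p = 0.0607 by edgeR) with no overlap of its libraries. It did pass with DESeq2 (2.98, adjusted p = 0.00471), with no filter on low counts and with only the groups compared (adjusted p of 3.85e-07 to 0.261 over all alternatives). The calprotectin genes rested on a few counts, with 4 and 6 for *S100a8* and 4 and 1 for *S100a9* in TAM short, and *Lcn2* had 2.03 and 1.64 normalized CPM against 1.92 and 1.20 in control. *Saa3* had a log2 fold change of 0.69 (SE 1.03, adjusted p = 0.717 by edgeR). The difference between both serum amyloid genes was not tested.

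Among genes of the same pathways, the oxidase family rose in 4 of 10 and fell in 1, beside the 6.52% higher and 7.80% lower of all genes. *Duoxa1*, the maturation factor of *Duox1*, rose by 3.40 (adjusted p = 0.00656 by edgeR). *Nox1*, the oxidase of colon epithelium, fell by 1.10 (adjusted p = 0.0119). Of 15 targets of NF-kB 6 rose, among them the adhesion gene *Icam1* (log2 fold change 1.11, adjusted p = 0.00532) and *Nfkbiz*, which encodes the nuclear regulator IkB zeta (1.08, adjusted p = 0.00451). Of 16 genes of receptors and processing, 2 rose and 1 fell, shares near those of all genes, and the fall, of *Slc22a17* (-1.36, adjusted p = 0.0457), was lost with scaling by library total alone. *Il1rn*, the antagonist of the IL-1 receptor, rose by 1.83 (adjusted p = 0.0358) and *Tlr4*, the receptor of lipopolysaccharide, by 1.15 (adjusted p = 0.0267).

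Of 21 testable genes on a list of other colitis genes, 5 rose. They include the antimicrobial lectins *Reg3b*, from 4020 ± 1480 to 27991 ± 3514 normalized CPM (SD, n = 2, adjusted p = 0.0163 by edgeR), and *Reg3g*, from 2236 ± 501 to 14462 ± 1730 (adjusted p = 0.0451). *Il17a*, *Il22*, *Il23a* and *Mmp8* had too few counts in all groups to be tested. Macrophage markers summed to 176 and 192 in control and to 246 and 290 in TAM short, with 5 of 12 higher, and neutrophil markers to 16.7 to 17.7 and 29.7 to 30.3, with *Ly6g* at 0 in all 4 libraries. Small intestine markers were lower in 6 of 10, among them *Lct* (-9.45, adjusted p = 3.59e-05) and *Gata4* (-2.51, adjusted p = 0.0175), and higher in 1, *Fabp6* (12.38, adjusted p = 1.67e-05 by edgeR). Fibroblast markers were lower in 5 of 10 and higher in 1, with sums of 1393 and 1522 in control and 708 and 852 in TAM short. The part of these shifts in the results was not tested.

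The second question was the same for the L libraries, DSS_L (TAM long) against NL (DMBA). By edgeR none of the 10 genes passed in either direction, against 1.24% of all genes called higher and 1.46% called lower. At an unadjusted p under 0.05, 6 were higher (*S100a8*, *Tnf*, *Saa1*, *Nos2*, *Duox2* and *Duoxa2*), against 9.28% of all genes, and 0 lower, against 10.3%. *S100a8* and *S100a9* rest on few counts here and passed the filter only through the DMBA+TAM libraries. Without both of them, 5 of 8 were higher at that p. DESeq2 called 1 higher, limma on log2(FPKM + 1) 1 and limma on log2(FPKM + 0.1) 0, and none of them called any lower. Their median log2 fold change was 1.01, also without the calprotectin genes, beside a median of 0 to 2 decimals over all genes.

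*Tnf* came nearest, from 0.872 to 4.53 normalized CPM on average (log2 fold change 2.39, SE 0.54, adjusted p = 0.0521 by edgeR), with no overlap of its libraries. *Saa1* had a log2 fold change of 1.24 (SE 0.34, adjusted p = 0.0855 by edgeR) and *Nos2* of 1.29 (SE 0.40, adjusted p = 0.119). For *Duoxa2* it was 0.90 (SE 0.36, adjusted p = 0.217) and for *Duox2* 0.70 (SE 0.31, adjusted p = 0.247). *S100a8* had 9 and 2 counts in TAM long and 1 and 0 in DMBA, a ratio of 10.2 with a 95% counting interval of 1.48 to 437. With a block for the replicate number, *Saa1* passed (1.34, adjusted p = 0.0130 by edgeR), but the labels do not say that equal numbers share a source. Without DMBA replicate 2, which was the higher DMBA library for *Saa1*, *Nos2* and *Duoxa2*, these 3 genes passed with log2 fold changes of 1.89, 2.22 and 1.58. The DMBA libraries differed from each other more than any other pair, with a chi-square of 67.0 per degree of freedom over genes, against 5.57 to 23.2 in the other groups.

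In the related lists, 0 of 10 oxidase genes, 1 of 15 NF-kB targets, 2 of 16 genes of receptors and processing and 1 of 21 testable other colitis genes were higher and 0 lower, beside 1.24% and 1.46% of all genes. In the oxidase family, *Nox1* (-0.53, adjusted p = 0.176 by edgeR) did not pass. *Nfkbiz* was the NF-kB target that rose, by 1.24 (adjusted p = 0.0111 by edgeR). *Il1r1*, the signalling receptor of interleukin 1, rose by 0.90 (adjusted p = 0.0375), and *Casp1*, the protease that activates interleukin 1 beta, by 0.52 (adjusted p = 0.0405), and both calls were lost with scaling by library total alone. Of the other colitis genes, *Ido1*, which encodes a tryptophan-degrading enzyme induced by interferon, rose from 12.8 ± 2.00 to 68.8 ± 16.5 normalized CPM (adjusted p = 0.000714 by edgeR). *Ido1* also rose in TAM short against control (2.15, adjusted p = 0.000146), and the difference between both changes did not pass (0.27, adjusted p = 0.586). Neutrophil markers summed to 389 to 494 in DMBA and 240 to 274 in TAM long, mostly from *Cd177* (404 ± 35.2 and 228 ± 8.60, SD, n = 2). The sums of colon markers were 3363 and 7252 in DMBA and 5745 and 12696 in TAM long, and 3 of 10 fibroblast markers were lower in TAM long. Small intestine markers summed to 308 and 715 in DMBA and to 1019 and 1023 in TAM long. Among them *Apob* was higher in TAM long (2.74, adjusted p = 0.00871 by edgeR). The part of these markers in the results was not tested.

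**Figure D3:**
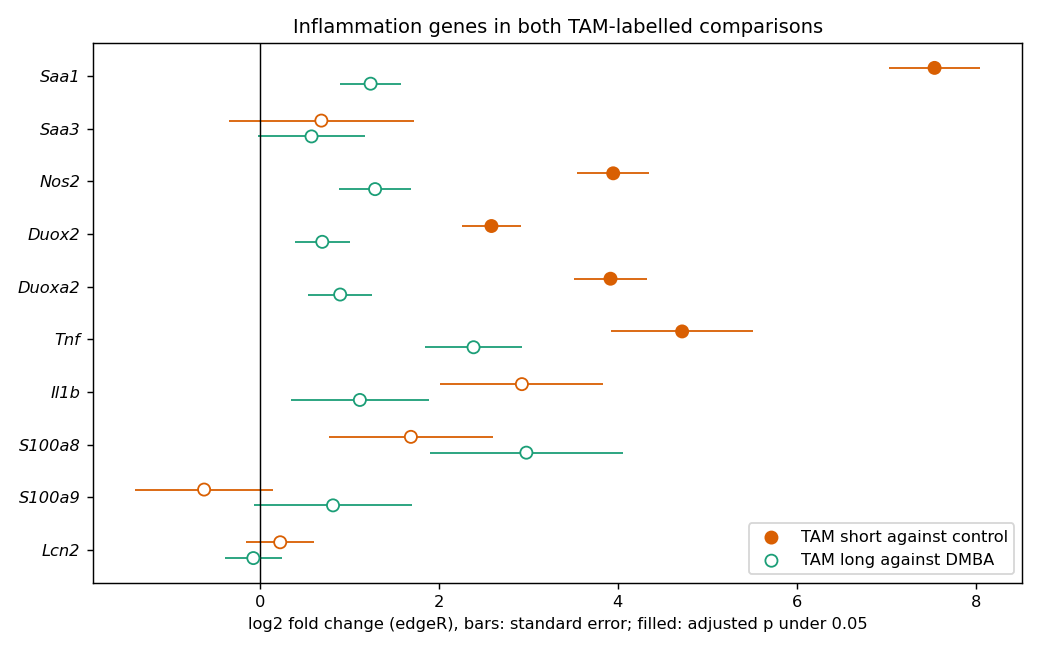
Log2 fold change of each of the 10 genes from edgeR in TAM short against control (orange) and TAM long against DMBA (green), with bars for the standard error and filled points for an adjusted p under 0.05. The 5 filled points, *Saa1*, *Nos2*, *Duox2*, *Duoxa2* and *Tnf*, all belong to TAM short against control.

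Whether both changes differed was tested as an interaction. Of the 10 genes, 4 had a smaller change in TAM long against DMBA than in TAM short against control, against 2.78% of all genes, and 0 a larger one, against 2.93%. The count of larger ones was also 0 at an unadjusted p under 0.05 (11.7% of all genes), by DESeq2 and by limma. The difference of the log2 fold changes was -6.29 for *Saa1* (SE 0.61, adjusted p = 0.00120 by edgeR). It was -3.02 for *Duoxa2* (SE 0.54, adjusted p = 0.0170), -2.65 for *Nos2* (SE 0.55, adjusted p = 0.0238) and -1.89 for *Duox2* (SE 0.44, adjusted p = 0.0371). For *Tnf* it was -2.34 (SE 1.06, adjusted p = 0.233), which did not pass.

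*Saa1* differed also in where it started, at 1.13 and 1.08 normalized CPM in control but 260 and 557 in DMBA. Its difference passed without any of the 8 libraries, at -5.64 without DMBA replicate 2. The other 3 did not pass without some libraries. *Nos2* kept the call only without DMBA replicate 1 (-3.24) or DMBA replicate 2 (-1.73), and ran from -2.91 to -2.45 without each library of control, TAM short and TAM long. *Duox2* lost it without control replicate 2, DMBA replicate 2 or any library of TAM short or TAM long, at -2.05 to -1.38. *Duoxa2* lost it without control replicate 2 or any library of TAM short or TAM long, at -3.18 to -2.60, and was -3.63 without control replicate 1 and -2.34 without DMBA replicate 2.

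By the labels, DMBA and TAM long can each be set against the saline control. In DMBA, 4 of the 10 genes were higher, against 24.5% of all genes, and 1 was lower, against 23.3%. In TAM long 5 were higher, against 23.2%, and none lower, against 22.8%, with 0 lower also at an unadjusted p under 0.05 (26.1% of all genes), by DESeq2 and by limma. These comparisons share the control libraries. They cross from libraries with small intestine markers (29907 and 31324 summed normalized CPM in control) to libraries with colon markers, in which 9 of 10 small intestine genes were lower, so that treatment and gut segment cannot be told apart.

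*Saa1* rose against control by 8.51 in DMBA (SE 0.52, adjusted p = 2.22e-06 by edgeR) and by 9.75 in TAM long (SE 0.54, adjusted p = 1.15e-06). *Tnf* rose in DMBA on 7 and 10 counts (ratio 7.25, 95% counting interval 1.72 to 64.7, adjusted p = 0.0358) and in TAM long on 63 and 37 counts (ratio 39.4, interval 10.6 to 330, adjusted p = 0.000519). The oxidase pair rose in both, *Duox2* by 1.38 (adjusted p = 0.00557) and 2.08 (adjusted p = 0.000616) and *Duoxa2* by 1.74 (adjusted p = 0.00790) and 2.64 (adjusted p = 0.000878). *Nos2* took the other direction in DMBA, where it fell by 1.82 (adjusted p = 0.00468), and in TAM long it was -0.53 (adjusted p = 0.277). *Saa3* rose by 2.78 in TAM long (adjusted p = 0.0176) and had 2.20 in DMBA (adjusted p = 0.0548).

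Some of these calls rest on single libraries. In DMBA, *Duox2* (1.01) and *Duoxa2* (1.31) no longer passed without control replicate 2, and *Tnf* did not without control replicate 1 (1.76) or DMBA replicate 2 (2.26). *Tnf* in DMBA also did not pass by limma on log2(FPKM + 1) (0.57, adjusted p = 0.119). In TAM long, *Saa3* no longer passed without control replicate 1 (2.50), control replicate 2 (3.09) or TAM long replicate 1 (1.55), and was 3.40 without TAM long replicate 2. In TAM long, *Tnf* passed at 4.15 without control replicate 1, and without control replicate 2 it passed in both comparisons with no control count left. Without DMBA replicate 2, *Nos2* was -2.75, *Saa1* 7.85 and *Duoxa2* 1.06, and all 3 still passed. Without control replicate 1, *Duoxa2* was 2.35 in DMBA and 3.25 in TAM long.

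In DMBA+TAM all 10 genes differed from control, 7 higher and 3 lower, against 29.0% and 35.3% of all genes. The 7 include *S100a8* and *S100a9*, which passed the filter on low counts only through these libraries. Higher were the cytokines, both calprotectin genes, *Lcn2* and both serum amyloid genes. Lower were *Nos2*, *Duox2* and *Duoxa2*, which encode the enzymes that make nitric oxide and hydrogen peroxide and the maturation factor of the latter enzyme. Taken over all 10, log2 fold changes against control had a median of 5.14, beside -0.17 over all genes. Both calprotectin genes lie above this value (*S100a8* at 6.16 and *S100a9* at 5.93), so that it would be lower without them.

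*Saa3* rose most against control, by 8.06 (SE 0.73, adjusted p = 6.04e-06 by edgeR). *Il1b* rose by 6.28 (SE 0.84, adjusted p = 9.99e-05 by edgeR), *S100a9* by 5.93 (SE 0.53, adjusted p = 5.67e-06) and *Lcn2* by 4.82 (SE 0.33, adjusted p = 9.13e-07). *S100a8* went from 2 and 1 counts to 30 and 26 in libraries of a smaller total, a ratio of 76.9 per total with a 95% counting interval of 25.0 to 384 (adjusted p = 4.20e-05). *Tnf* went from 0 and 2 counts to 14 and 10, a ratio of 49.4 with an interval of 12.3 to 431 (adjusted p = 0.000247). *Saa1* rose by 2.90 (SE 0.64, adjusted p = 0.00286), on 13 and 22 counts. *Il1b* had no count in control replicate 2 and *Tnf* none in control replicate 1. Without that library *Il1b* was 5.31 and *Tnf* 4.48, and both passed without either library.

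*Duox2* fell by 4.90 (SE 0.52, adjusted p = 2.00e-05 by edgeR), to 4 and 6 counts. *Duoxa2*, with no count, was at least 4.17-fold lower (3 counts per library, adjusted p = 0.00621 by edgeR). *Nos2* fell by 1.48 (SE 0.48, adjusted p = 0.0211 by edgeR), a call that was lost when libraries were scaled by their total alone (adjusted p = 0.0809 by edgeR, 1.63e-12 to 0.163 over all alternatives), by limma, without control replicate 1 (-1.28) and without DMBA+TAM replicate 2 (-1.07). The relatives of the oxidase pair went the other way: *Duox1* had 26 and 23 counts in DMBA+TAM, a log2 fold change of 5.03 (SE 0.63, adjusted p = 6.14e-05 by edgeR), and *Duoxa1* rose by 4.87 (SE 0.63, adjusted p = 8.37e-05).

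**Figure D4:**
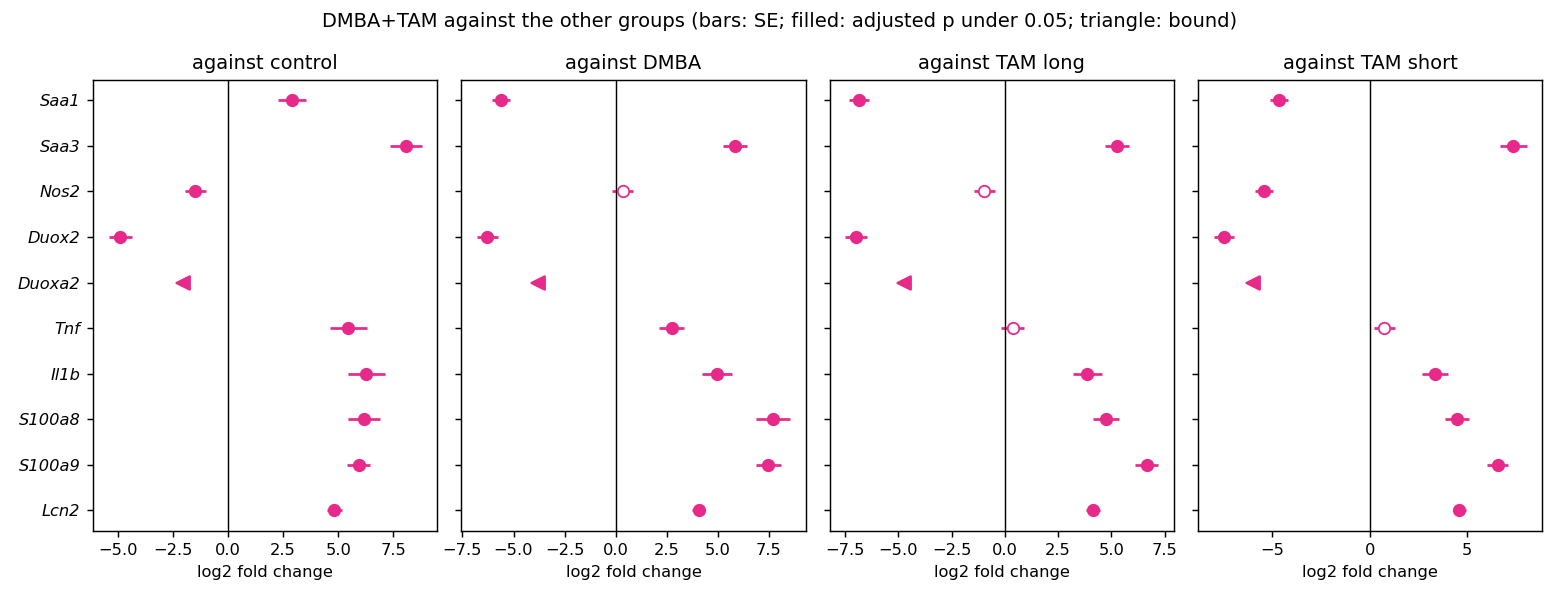
Log2 fold change of each of the 10 genes in DMBA+TAM against each of the other 4 groups (edgeR), with bars for the standard error and filled points for an adjusted p under 0.05. Triangles for *Duoxa2* mark the bound from 3 counts, since both DMBA+TAM libraries had none. *Duox2* stands on the lower side and *Saa3*, *Il1b*, *S100a8*, *S100a9* and *Lcn2* on the higher side in all 4 panels, while *Saa1* changes side.

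Against the other groups, DMBA+TAM was higher in 6 genes and lower in 3 against DMBA (25.2% and 29.9% of all genes). It was higher in 5 and lower in 3 against TAM long (25.3% and 29.9%), and higher in 5 and lower in 4 against TAM short (29.3% and 33.8%). Each count of higher genes includes *S100a8* and *S100a9*, which passed the filter on low counts only through DMBA+TAM. *S100a8*, *S100a9*, *Il1b*, *Lcn2* and *Saa3* were higher in DMBA+TAM in all 4 comparisons, which share the DMBA+TAM libraries, and *Duox2* and *Duoxa2* were lower in all 4. *Saa1* was lower than in DMBA, TAM long and TAM short by log2 fold changes of -5.61, -6.85 and -4.64 (SE 0.46, 0.48 and 0.46). *Saa3* was higher than in them by 5.85, 5.28 and 7.37 (SE 0.60, 0.57 and 0.69). Both genes therefore changed in opposite directions against these 3 groups, with all 6 adjusted p of edgeR at 3.33e-05 or less. *Tnf* was higher than in DMBA (2.74, adjusted p = 0.00388 by edgeR) and did not pass against TAM long (0.36, SE 0.53) or TAM short (0.74, SE 0.54). *Nos2* was lower than in TAM short (-5.43, SE 0.48, adjusted p = 5.38e-06) and did not pass against DMBA (0.34, SE 0.52) or TAM long (-0.96, SE 0.49). Against DMBA, *Nos2* passed without DMBA replicate 2 (1.23) and was -0.26 without DMBA replicate 1 and -0.21 without DMBA+TAM replicate 1.

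The sizes of some differences, but not their calls, depended on single libraries, which for *S100a8*, *S100a9* and *Il1b* hold few counts and for *Saa3* differ within the group (79 and 17 counts in DMBA, 124 and 30 in TAM long). Against DMBA, *Il1b* was 6.53 without DMBA replicate 1 and 4.31 without DMBA replicate 2, *Saa3* 7.12 and 5.23, and *S100a8* 7.00 without DMBA replicate 2 and against no count without DMBA replicate 1, while *Saa1* was -4.98 without DMBA replicate 2. Against TAM long, *S100a8* was 5.98 without TAM long replicate 1 and 4.09 without TAM long replicate 2, and *Saa3* 6.48 and 4.64. Against TAM short, *S100a9* was 7.67 without TAM short replicate 1 and 5.95 without TAM short replicate 2. *Duoxa2* was at least 14.1-fold, 26.2-fold and 63.5-fold lower in DMBA+TAM than in DMBA, TAM long and TAM short, from 3 counts per library.

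Cell markers moved with these rises. Of the macrophage markers 12 of 12 were higher than in control, with *Csf1r* at 420 ± 45.1 normalized CPM (SD, n = 2) against 22.1 ± 2.22. *Cd68* had 143 ± 5.87 against 2.92 ± 0.295. Of the 12 neutrophil markers, 6 were at 0 in both DMBA+TAM libraries: *Ly6g*, *Mpo*, *Elane*, *Camp*, *Ltf* and *Ngp*, at a depth that allows up to 1.58 and 1.32. *Csf3r*, the receptor of G-CSF, had 50.3 ± 0.317 against 0.748 ± 0.378 in control, and *Cxcr2* had 4.96 ± 1.06 against 0.0564 ± 0.0798. The neutrophil list summed to 72.5 and 81.1 in DMBA+TAM and to 389 and 494 in DMBA, where *Cd177* alone had 404 ± 35.2. Its members differed in direction between these groups: against DMBA, 3 of the 6 testable genes rose in DMBA+TAM and 2 fell. *Cd177* fell (-7.39, adjusted p = 2.27e-08 by edgeR), and *Csf3r* (6.17, adjusted p = 3.30e-06), *Cxcr2* (3.61, adjusted p = 0.000634) and *Mmp9* (3.73, adjusted p = 6.96e-05) rose. *Ly6g*, at 0 in DMBA+TAM, had 34.3 ± 39.5 normalized CPM (SD, n = 2) in DMBA and 26.4 ± 17.2 in TAM long. Of the fibroblast markers 9 of 10 were higher than in control and 0 lower, and 10 of 10 were higher than in each of the other 3 groups. *Col1a1*, which encodes the main collagen of fibroblasts, had 7922 ± 542 against 210 ± 29.0. The part of these cell markers and of the lower depth in the results was not tested.

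Genes of the same pathways went both ways in DMBA+TAM, read against the 29.0% of all genes called higher and 35.3% lower. In the oxidase family 7 of 10 rose, led by *Duox1*, *Duoxa1* and *Ncf1*, a cytosolic subunit of the phagocyte oxidase (4.23, adjusted p = 1.53e-06 by edgeR), and 3 fell. *Nox1*, the colon oxidase, went from 8.65 to 0.220 normalized CPM on average, and its activator *Noxa1* from 12.1 to 0. Of receptors and processing genes, 10 of 16 rose and 3 fell. The decoy receptor *Il1r2* rose by 6.10 (adjusted p = 3.12e-06 by edgeR) and *Tlr4* by 5.15 (adjusted p = 1.09e-07), while the inflammasome adaptor *Pycard* fell by 3.99 (adjusted p = 8.40e-08), *Gsdmd*, which encodes the pore protein of pyroptosis, by 3.33 (adjusted p = 4.27e-08) and *Casp1* by 3.00 (adjusted p = 4.44e-08). The sensor gene *Nlrp3* was among those that rose.

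NF-kB targets had 6 of 15 higher and 5 lower, beside 29.0% and 35.3% of all genes, so that their shares were near the background. With scaling by library total alone it was 8 and 1, and *Tnfaip3*, *Nfkbia*, *Relb* and *Sod2* no longer passed. All genes also moved up under that scaling, with 10000 of 16179 called and 6236 of these higher. The neutrophil chemokine *Cxcl2* had 37.4 ± 22.4 normalized CPM in DMBA+TAM against 0.0601 ± 0.0850 in control (adjusted p = 1.45e-05 by edgeR), and *Tnfaip2* rose by 3.76 (adjusted p = 1.91e-07). The NF-kB inhibitor *Tnfaip3* fell by 1.09 (adjusted p = 0.00535) and the RNase gene *Zc3h12a* by 0.96 (adjusted p = 0.000661). Of the 21 testable other colitis genes, 14 rose and 4 fell. The matrix metalloproteinase *Mmp3* had 179 ± 7.20 against 0.226 ± 0.319 (adjusted p = 1.84e-06) and the monocyte chemokine *Ccl2* 41.2 ± 11.0 against 0.300 ± 0.425 (adjusted p = 5.61e-06). The epithelial genes *Reg3b* (0.440 ± 0.622 against 4020 ± 1480) and *Ido1* (no count against 50.2 ± 1.58) were among the 4 that fell.

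Scaling mattered to the median of all genes. With library size only in place of TMM, the median log2 fold change over all genes moved from -0.17 to 0.31 in DMBA+TAM against control, from 0.07 to 0.37 in DMBA against control and from 0.05 to 0.37 in TAM long against control. It moved from -0.14 to 0.25 in DMBA+TAM against TAM short, to 0.04 against DMBA and to 0.02 against TAM long. All directions given above for genes past the test, those of the lists included, were the same under both scalings.

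Likeness of pattern was described by Pearson's r of log2(normalized CPM + 1) over the 10 libraries, which share 5 groups, for the 8 members with a mean of at least 5 normalized CPM. *S100a9*, *Il1b*, *Lcn2* and *Saa3* reach this mean only through DMBA+TAM, so that their r mainly reflects the contrast of that group with the rest. The genes most like *Nos2* were *Tifa* (0.994), *Slitrk6* (0.978) and *Tec* (0.977). For *Duox2* they were *Gm3336* (0.992), *Ick* (0.992) and *Tc2n* (0.988), and for *Duoxa2* *Klf3* (0.982), *Tac1* (0.978) and *Igkv4-68* (0.978). *Saa1* was most like *Stk38l* (0.971), *Trpm6* (0.969) and *Gm53* (0.964), whereas *Saa3* was most like *Psap* (0.997), *Ier3* (0.992) and *Ttc9* (0.990). *S100a9* had *Gzmc* (0.997), *Aoah* (0.995) and *Hal* (0.995), *Lcn2* had *Dram1*, *Fgf18* and *Mrc1* (0.996 each), and *Il1b* had *Atp10d* (0.979), *Ifi211* (0.979) and *Adora2a* (0.977).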

How the data were processed

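RNA-seq of 10 libraries was analysed. The authors used TopHat for mapping and HTSeq for counting reads on genes, and deposited one table with these counts and FPKM, on GRCm38. The columns of the authors' own comparisons (fold changes and p-values) were not used. Of 47074 lines, 5 were parts of split lines (among them *Tnf* and *Il1b*) and were rejoined. The test of the deposited counts was edgeR's quasi-likelihood test (edgeR 4.0.16, R 4.3.3) after filterByExpr by group, which kept 16179 of 47069 genes, and TMM scaling. One fit held all libraries with a mean per group, and p-values were adjusted by Benjamini-Hochberg over all tested genes, with a threshold of 0.05. Intervals of ratios are exact 95% binomial intervals of summed counts and, like floors of 3 counts, cover counting error only.

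Alternatives were DESeq2 1.42.0, library size only, no filter, fits of only the groups compared, a block for the replicate number, limma (3.58.1, trend) on log2(FPKM + 1) and log2(FPKM + 0.1) from the deposited FPKM, and each library left out in turn. Leaving out both DMBA+TAM libraries was added after seeing the data. The members, the lists and the marker genes were chosen with earlier results of these data known. All members are named. Of each other list, the 2 largest rises and 2 largest falls past the threshold with a mean of at least 20 counts are named in TAM short against control, TAM long against DMBA and DMBA+TAM against control, with *Duox1*, *Duoxa1*, *Saa2*, defining markers and *Ppp2r1a*. Others (*Casp1*, *Nlrp3* and the NF-kB targets that lost their call in DMBA+TAM, *Nox1* in TAM long, *Ido1* in TAM short, *Slc22a17*, further neutrophil and small intestine markers) were named after their values were seen. One gene that the rule names is not reported here. The tools edgeR, DESeq2 and limma were each run on simulated data for TAM short against control. Sequences were read with Python 3.11.15 from RefSeq promoters on GRCm38.p6 and transcripts of GENCODE on GRCm38, the latter aligned with Biopython 1.88, and proteins were not analysed here.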

Additional observations from a re-analysis of the deposited data

Results flagged for a closer look

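The change with the TAM label differed between the S and the L libraries for 4 of the 10 genes, by the interaction test of edgeR's quasi-likelihood fit. For all 4 this change was smaller in the L libraries, a direction of difference called in 2.78% of all genes. As TAM long against DMBA minus TAM short against control, the log2 difference was -6.29 for *Saa1* (adjusted p = 0.00120), -3.02 for *Duoxa2* (adjusted p = 0.0170), -2.65 for *Nos2* (adjusted p = 0.0238) and -1.89 for *Duox2* (adjusted p = 0.0371). Both log2 fold changes were positive for each gene: 1.24 and 7.54 for *Saa1*, 0.90 and 3.92 for *Duoxa2*, 1.29 and 3.95 for *Nos2*, and 0.70 and 2.59 for *Duox2*. Limma on log2(FPKM + 0.1) called 2 genes lower, without *Nos2* and *Duox2*. The calls of *Nos2*, *Duox2* and *Duoxa2* also depended on single libraries, as given above. With groups of 2 libraries, outlying libraries were not searched for.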

How the results depend on the processing

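Of 1058 values of the 10 genes under an alternative, 974 kept their direction and their side of the threshold, 32 no longer passed, 39 passed newly and 13 changed sign, none of them of a gene that had passed. Where a library was left out, the lone library of its group was assumed to vary like the other groups. Where no cause is given below, the cause was not tested.

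In TAM long against DMBA, the number of genes higher, 0, became 1 with DESeq2, 5 with no filter on low counts, 1 with limma on log2(FPKM + 1) and 0 to 3 without single libraries. In the difference of both TAM-labelled changes, 4 genes lower became 2 with limma on log2(FPKM + 0.1) and 1 to 4 without single libraries. DMBA against control had 4 genes higher, 6 with library size only and with limma on log2(FPKM + 0.1), 5 with DESeq2, 3 with only the groups compared and 2 to 4 without single libraries. TAM long against control had 5 higher, 7 with library size only and with limma at both pseudocounts and 6 with DESeq2. TAM long against control had 0 lower and 1 (*Nos2*) with no filter. The replicate block gave 1 gene higher in TAM long against DMBA, *Saa1* (1.34, adjusted p = 0.0130 by edgeR, 4.30e-13 to 0.283 over all alternatives). The labels do not say that equal numbers share a source, and the deviations of equal numbers correlated at 0.32 between DMBA and TAM long and at -0.06 to 0.08 between the other groups, so the numbers were not read as pairs. The block also added *Il1b* in TAM short against control and in TAM long against control, and *Saa3* in DMBA against control, each of which also passed with DESeq2, with no filter and under 1 or more other alternatives.

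Signs changed for these genes. *Lcn2* was -0.06 to 0.61 in TAM short against control without single libraries (lowest without control replicate 2) and 0.12 in TAM long against DMBA without DMBA replicate 2. *Saa3* in TAM long against DMBA was -0.02 without DMBA replicate 2 and -0.64 without TAM long replicate 1, with a highest value of 1.85. In the difference it was 0.01 with limma on log2(FPKM + 1), and 0.17, 1.16, 0.03 and 0.51 without control replicate 1, DMBA replicate 1, TAM short replicate 2 and TAM long replicate 2 (lowest -1.33). *Il1b* was -0.28 in DMBA against control without DMBA replicate 1, and at most 6.02 (without control replicate 1, against a library with no count). In DMBA+TAM, *Nos2* against DMBA was -0.26 without DMBA replicate 1 and -0.21 without DMBA+TAM replicate 1 (highest 1.23), and *Tnf* against TAM long was -0.05 without DMBA+TAM replicate 1 (highest 0.70).

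Over all genes, 437 passed in TAM long against DMBA, 849 with DESeq2, 1615 with no filter, 29 with only the groups compared, 290 with limma on log2(FPKM + 1) and 199 with a pseudocount of 0.1. TAM short against control had 2317, and 4317 with only the groups compared. The difference had 924, 2025 with no filter and 602 with limma at 0.1. Without single libraries, the count was 669 (without TAM short replicate 2) to 1057 in TAM short against control, 58 (without TAM long replicate 1) to 1036 (without DMBA replicate 1) in TAM long against DMBA, 179 (without TAM short replicate 2) to 1618 (without DMBA replicate 1) for the difference, and as low as 4946 (without control replicate 2) beside 7444 in TAM long against control. The shares of all genes in the report hold for the fit of all 10 libraries. With library size only, 5549 of 7807 calls in DMBA against control were higher, beside 3961 of 7735 with TMM. It was 5513 of 7657 beside 3760 of 7444 in TAM long against control, 6236 of 10000 beside 4687 of 10396 in DMBA+TAM against control, 5999 of 9774 beside 4734 of 10207 against TAM short, and 1272 of 2169 beside 1055 of 2317 in TAM short against control. Without both DMBA+TAM libraries, *S100a8* and *S100a9* no longer passed the filter, and no count of genes called changed among the other 8. At the depth of DMBA+TAM, levels under 1.58 and 1.32 normalized CPM could not be told from 0.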
